A study of Mus musculus with 3 samples.

Results

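The interleukin-6 (IL-6) family was followed through 10 mouse genes: the cytokine genes Il6 and Lif, the receptor genes Il6ra, Il6st, Lifr and Osmr, the signal transducer Stat3, its feedback inhibitor Socs3, and the secreted acute-phase outputs Lcn2 and Saa3. They were found by symbol among the 57010 genes of the deposited table, and all but Lifr, 9 of 10, had at least 10 counts in a library. The set was chosen by the levels of Il6 and Lcn2, which were higher with both hairpins against Asns, so their values against scramble are a description, with no test. RNA came from MBT2, a mouse bladder cancer cell line, infected with a pLKO.1 lentiviral vector and selected with puromycin. The 3 lines carried a scramble plasmid, the shAsns#1 plasmid or the shAsns#2 plasmid, and each gave 1 library, so no construct has a replicate. Both hairpins target Asns, which encodes asparagine synthetase, and nothing states whether a line came from 1 clone. The labels name RPMI-1640 medium and TRIzol, while the study's methods name another medium and kit. Levels are CPM, counts divided by the library size after scaling by the trimmed mean of M values (TMM), and 3 values in a row stand in the order scramble, shAsns#1, shAsns#2.

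Cytokines of the IL-6 family bind a ligand-specific receptor and then the shared subunit gp130, encoded by Il6st. The gp130 dimer, or gp130 paired with the LIF or oncostatin M receptor, activates JAK kinases, which phosphorylate STAT3. STAT3 then induces target genes, among them Socs3, whose product binds gp130 and shuts the signal down, and, in the liver, acute-phase proteins. Tumor cells of many kinds make IL-6 themselves, and NF-κB and C/EBP factors drive the Il6 gene.

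Asns itself stood at 1574 counts in scramble, 636 with shAsns#1 and 663 with shAsns#2, lower in both knockdown libraries. The libraries summed to between 19167852 and 22915511 counts. Leukocyte and neutrophil markers were nearly absent, unlike fibroblast markers. The 10 leukocyte markers summed to between 3.22 and 5.15 CPM, nearly all of it from Cd79a, with Tyrobp, C1qa, Cd3e, Adgre1 and Ncr1 at 0 throughout. The 10 neutrophil markers summed to between 1.95 and 2.09 CPM, most of it from Cxcr2, with S100a9, Camp, Ngp, Ltf and Retnlg at 0. The urothelial markers Upk1b, Upk3a, Krt5 and Krt20 had 0 counts in every library, and 16 urothelial and epithelial markers together reached 11.0 to 17.7 CPM. The 9 fibroblast markers summed to 659, 711 and 871 CPM, mainly through Col3a1 and Pdgfra. Of the 6 tested, Dcn was the 1 that rose by edgeR (16.7%, against 1.14% of all genes kept), and none passed with limma-voom. Of 7 endothelial markers the sum stayed between 0.789 and 1.72 CPM. In bulk RNA, more cells expressing a gene and more RNA of it per cell cannot be told apart. The part of the fibroblast markers in the results was not tested.

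Among the ligands, Il6 went from nearly no transcript to a low level with both hairpins, whereas Lif stood lower. Il6, the founding cytokine of the family, had 3 counts in scramble, 49 with shAsns#1 and 67 with shAsns#2, or 0.161 CPM (95% Poisson interval 0.0332 to 0.470), 2.58 CPM (1.91 to 3.41) and 2.80 CPM (2.17 to 3.56). The intervals of the hairpin libraries overlapped each other. The rise over scramble was part of how the set was chosen, and nothing is read from its size. Taken from the CPM, the ratio to scramble was 16.0-fold with shAsns#1 and 17.4-fold with shAsns#2. Log2 ratios here add a prior count of 0.5, which pulls a gene this low toward 0, and were 3.80 and 3.91. The 95% counting intervals, which add none, ran from 2.37 to 6.33 and from 2.52 to 6.44 on the log2 scale. These intervals cover counting error only and are wide because they rest on 3 counts. In the culture supernatants measured by the study, IL-6 protein was above control with both hairpins and highest with shAsns#2. Its ratios to control were smaller than those of the RNA. Lif, which encodes leukemia inhibitory factor, had 1483, 1034 and 1258 counts, or 79.5, 54.4 and 52.7 CPM. Its log2 ratios were -0.55 and -0.59, and its edgeR log2 fold change of -0.57 (standard error 0.13) did not pass at an adjusted p of 0.064. Each edgeR p here treats the hairpin libraries as 1 arm with 1 residual degree of freedom and takes their spread for that of scramble, which has no replicate. Lif passed when only total counts scaled the libraries (adjusted p = 0.041), with no filter on low counts (0.0062) and with at least 10 counts in every library (0.046), and the adjusted p over 6 alternatives ran from 0.0062 to 0.17.

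**Figure D1:**
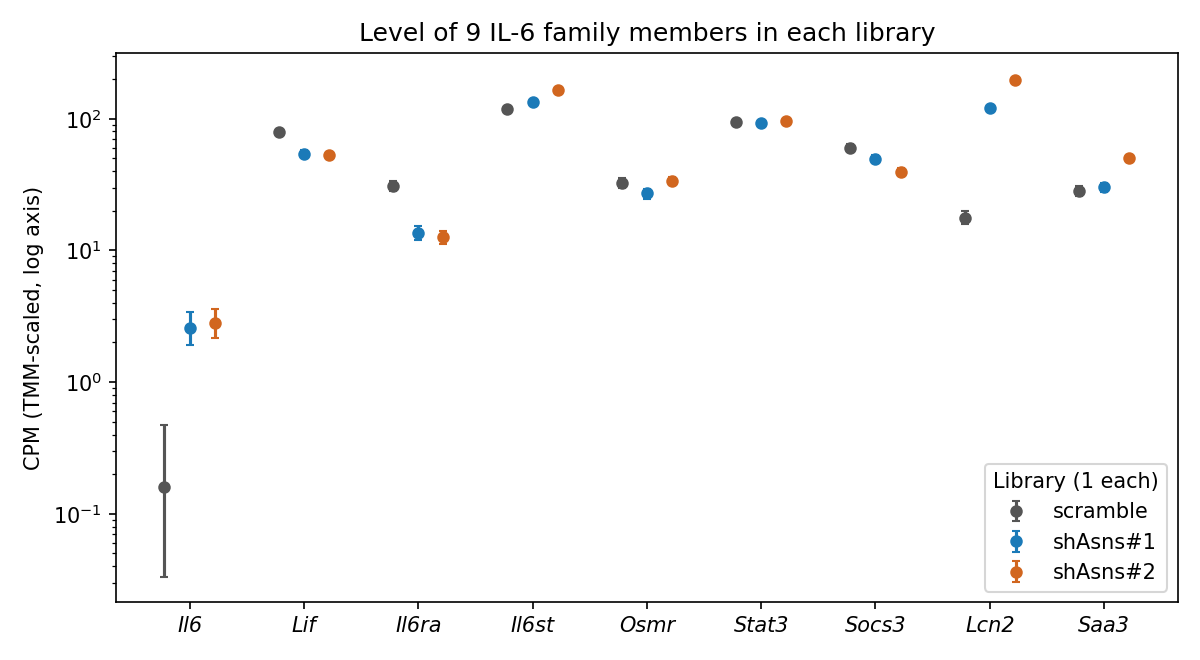
Level of 9 members in CPM (TMM-scaled, log axis) in the scramble, shAsns#1 and shAsns#2 libraries, 1 library each, with bars for the 95% Poisson interval of counting error. Il6 stood at 0.161 CPM in scramble against 2.58 and 2.80 CPM, and Lcn2 at 17.7 against 120 and 198 CPM, while Stat3 lay between 92.0 and 96.0 CPM in all 3, and Lifr is not drawn.

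Of the 9 other ligands listed, 5 had at least 10 counts in a library. None of them passed edgeR, against 2.65% of all genes kept. In this list Osm, the oncostatin M gene, was the only one above scramble with both hairpins (9, 14 and 31 counts). It reached the minimum of 10 counts only in the hairpin libraries, so the filter favored that direction. Its log2 counting interval for shAsns#1, -0.70 to 2.00, held 0. The other 4 stood below scramble with both hairpins. Of all genes kept, 38.6% stood above scramble with both hairpins and 39.1% below. Clcf1, a cardiotrophin-like cytokine and the best expressed of them, was at 35.8, 21.1 and 22.3 CPM, with log2 ratios of -0.76 and -0.68 (edgeR adjusted p = 0.051). Il11, a cytokine that also signals through gp130, had 53, 17 and 25 counts, log2 ratios of -1.64 and -1.43 (edgeR adjusted p = 0.11). Cntf had log2 ratios of -1.08 and -0.36 (edgeR adjusted p = 0.41), and its counts were not whole, so reads shared with other genes may be among them. The medians of the list were -1.0 and -0.36, while those over all 14003 genes kept were 0.00037 and -0.0047. Il27, Ebi3, Ctf2 and Il31 stayed under the minimum.

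Of the receptor genes, Il6ra fell, Il6st stood above scramble with both hairpins without passing the test, and Osmr did not pass either. Il6ra, the ligand-binding subunit that makes a cell responsive to IL-6, had 574, 259 and 302 counts, or 30.8, 13.6 and 12.6 CPM. The Poisson intervals ran from 28.3 to 33.4, from 12.0 to 15.4 and from 11.3 to 14.1 CPM. Both knockdown libraries were below scramble with intervals that did not meet. Il6ra fell by edgeR (adjusted p = 0.012), at -1.23 on the log2 scale with a standard error of 0.16. Over 6 alternatives its adjusted p ran from 3.4e-09 to 0.025. It was the only one called of the 8 members other than Il6 and Lcn2, of which 7 had enough counts to be tested. Across all genes kept, edgeR called 1.51% lower and 1.14% higher, 2.65% in either direction. Its counts were not whole, so shared reads may be among them.

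Il6st had 2213, 2540 and 3967 counts, or 119, 134 and 166 CPM. Both knockdown libraries lay above scramble, with log2 ratios of 0.17 (95% counting interval 0.09 to 0.26) and 0.49 (0.41 to 0.56), but the edgeR log2 fold change of 0.34 (standard error 0.17) had an adjusted p of 0.31. Osmr, the oncostatin M receptor subunit, had 606, 514 and 808 counts, or 32.5, 27.0 and 33.8 CPM. Its log2 ratios were -0.26 (-0.44 to -0.09) and 0.06 (-0.10 to 0.21), so that only the second interval held 0 (edgeR adjusted p = 0.82). Lifr, the receptor subunit for LIF, had 0 counts in scramble, which allows up to 0.161 CPM at a floor of 3 counts, and 3 and 1 counts with the hairpins. It failed the count filter and no fold is given. Lif transcript was therefore measured in libraries where Lifr transcript was at or under the floor in every library.

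Of 6 other receptors of the gp130 class, Il27ra, Il11ra1 and Lepr had enough counts and none passed edgeR, against 2.65% of all genes kept. Il27ra, which pairs with gp130 for IL-27, was at 27.7, 19.4 and 22.6 CPM (log2 ratios -0.51 and -0.29, edgeR adjusted p = 0.24). Il11ra1, the IL-11 receptor, was at 12.8, 11.9 and 11.1 CPM (edgeR adjusted p = 0.68). Lepr, the leptin receptor, was at 0.911, 1.42 and 1.51 CPM (edgeR adjusted p = 0.50). Cntfr, Il31ra and Csf3r had 0 counts in all 3 libraries. Soluble IL-6 receptor is shed by ADAM proteases, and of the 5 tested genes for shedding and trafficking none passed edgeR. Adam10 had log2 ratios of -0.06 and 0.04, Adam17 of -0.08 and 0.10, and Rhbdf1, which helps ADAM17 to mature, of 0.07 and -0.02. Erap1, an aminopeptidase, stood at 0.38 and 0.59 (edgeR adjusted p = 0.14), and Rhbdf2 at 0.24 and 0.17.

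**Figure D2:**
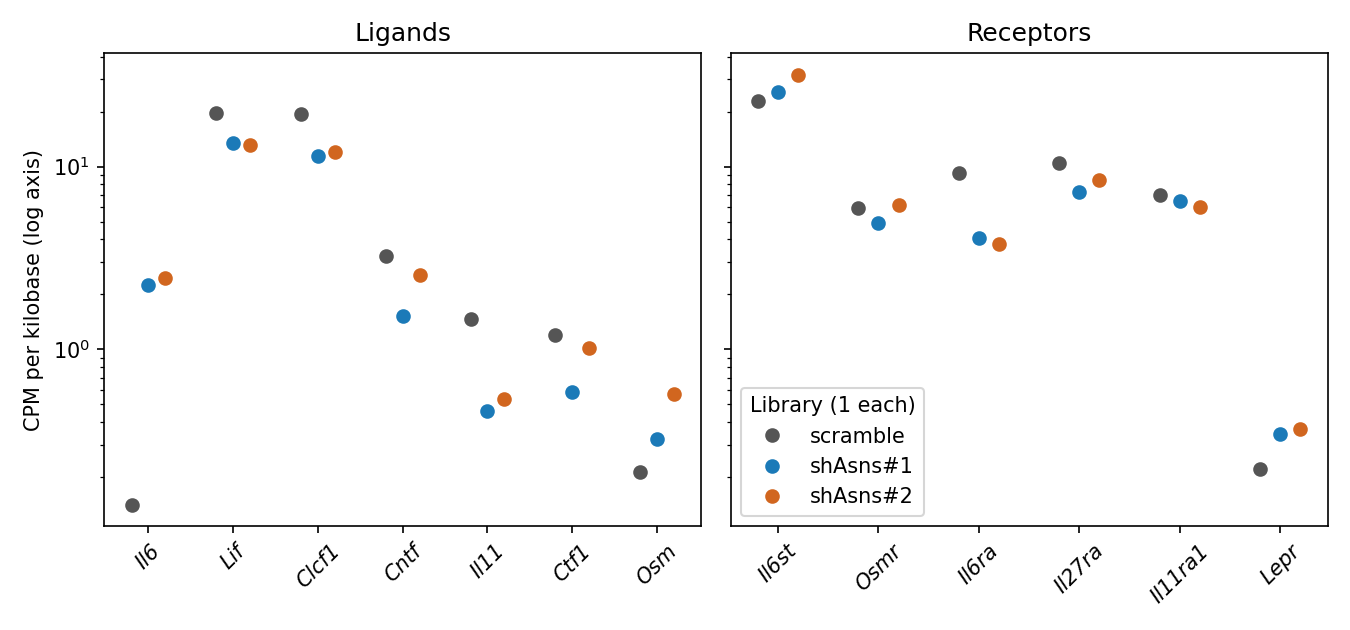
CPM per kilobase of the gene length in the deposited table (log axis) for 7 ligand genes and 6 receptor genes of the gp130 class, 1 point per library. Lif and Clcf1 were the highest ligands in each library, Il6 moved from 0.141 to 2.26 and 2.46, and Il6st, at 22.8, 25.7 and 31.9, lay above every other receptor drawn.

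Stat3 transcript did not differ between the libraries beyond counting error. It had 1759, 1749 and 2294 counts, or 94.3, 92.0 and 96.0 CPM, with log2 ratios of -0.03 (95% counting interval -0.13 to 0.06) and 0.03 (-0.06 to 0.12) and an edgeR adjusted p of 0.99. Phosphorylation, which turns STAT3 on, is not seen in RNA. Socs3, a direct STAT3 target and the inhibitor of gp130, had 1122, 938 and 941 counts, or 60.1, 49.4 and 39.4 CPM. Both hairpin libraries were lower, with log2 ratios of -0.28 (-0.41 to -0.16) and -0.61 (-0.74 to -0.48), but the edgeR log2 fold change of -0.44 (standard error 0.16) had an adjusted p of 0.20.

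**Figure D3:**
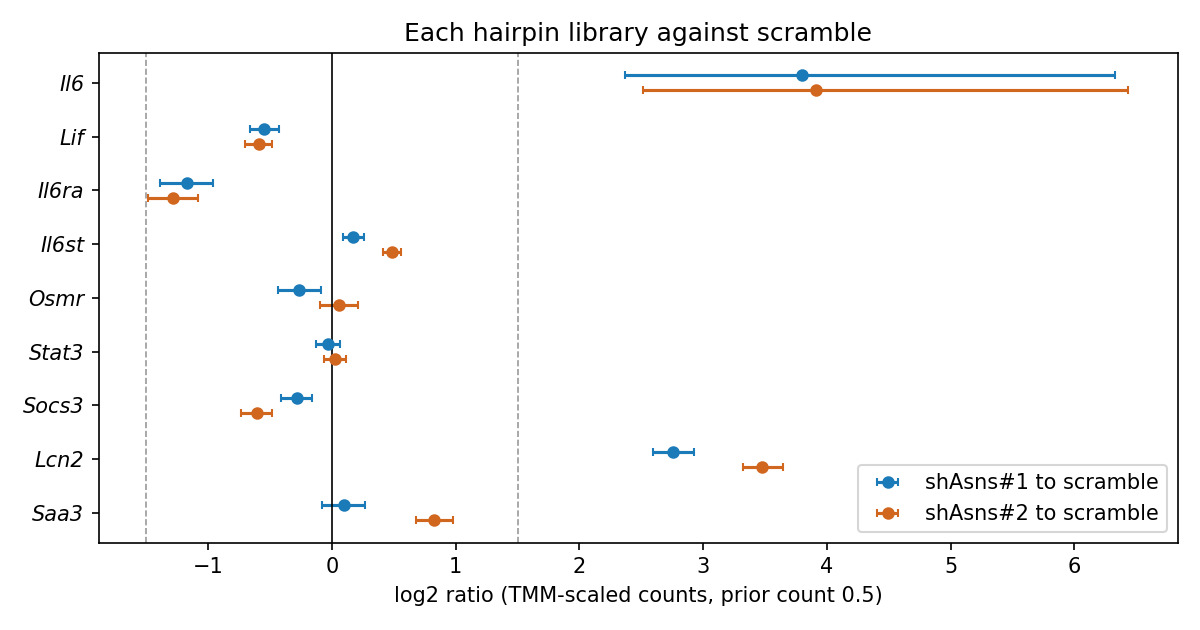
Log2 ratio of the shAsns#1 and shAsns#2 libraries to the same scramble library for 9 members, with 95% counting intervals as bars and dashed lines at 1.5 in either direction. Il6 and Lcn2 lay past 1.5 with both hairpins, Il6ra at -1.17 and -1.28, and Stat3 at -0.03 and 0.03.

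Of 14 tested JAK kinases, STATs and adaptors none passed edgeR, against 2.65% of all genes kept. Stat2, which carries type I interferon signals, had 548, 797 and 1030 counts and log2 ratios of 0.51 and 0.55 (edgeR adjusted p = 0.095). Shc1, an adaptor that links receptors to RAS, had 1720, 1337 and 1618 counts and log2 ratios of -0.39 and -0.44 (edgeR adjusted p = 0.13). Jak1, the main kinase on gp130, stood at -0.28 and -0.16 (edgeR adjusted p = 0.46), and the adaptors Ptpn11, at 0.06 and 0.14, and Grb2, at -0.04 and -0.24, also did not pass. Of 19 tested negative regulators none passed edgeR either, and at that share lists this short may hold no call. Socs1, the closest relative of Socs3 in function, had 70, 47 and 33 counts and log2 ratios of -0.60 and -1.43 (edgeR adjusted p = 0.26). Ptprt, a receptor phosphatase that acts on STAT3, had 18, 46 and 158 counts and log2 ratios of 1.30 and 2.74 (edgeR adjusted p = 0.12). Trim28, Pdlim2 and Pias2, the best expressed of the list per kilobase in scramble, had log2 ratios between -0.38 and 0.19. The list medians were 0.03 and 0.14 for the JAK and STAT genes and -0.10 and 0.02 for the negative regulators.

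Of 30 general STAT3 targets listed, 26 were tested, 1 fell by edgeR and none rose. The 1 that fell is 3.85% of those tested, where 1.51% of all genes kept fell. With both hairpins 17 (65.4%) stood below scramble and 3 (11.5%) above, against 39.1% and 38.6% of all genes kept, and the medians were -0.09 and -0.23. Fosl1, an AP-1 subunit, was the one that fell, from 204 to 129 and 116 CPM (edgeR adjusted p = 0.039). Ier3, an early response gene, was at 263, 147 and 92.7 CPM (log2 ratios -0.83 and -1.5, edgeR adjusted p = 0.056). Cebpb, a transcription factor that also acts on the Il6 and acute-phase genes, was at 10.9, 5.10 and 6.45 CPM (log2 ratios -1.10 and -0.76, edgeR adjusted p = 0.088). Vegfa stood at -0.52 and -0.43 (edgeR adjusted p = 0.13), Ccnd1, encoding cyclin D1, at -0.01 and -0.14, and Mmp9 at -0.09 and -0.14. Members of this list answer to many other signals, and the share of STAT3 in their levels was not measured.

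Lcn2 was far higher with both hairpins. It encodes lipocalin 2, which binds bacterial siderophores, and had 331, 2281 and 4735 counts, or 17.7, 120 and 198 CPM. The Poisson intervals ran from 15.9 to 19.8, from 115 to 125 and from 193 to 204 CPM. The intervals of the hairpin libraries did not meet, and shAsns#2 was the highest. They cover counting error only, and the rise over scramble was part of how the set was chosen. The ratios were 6.77-fold, a log2 ratio of 2.76 (95% counting interval 2.59 to 2.93), and 11.2-fold, a log2 ratio of 3.48 (3.32 to 3.65). Of the 9 members tested for fold, Il6 and Lcn2 lay above 1.5 on the log2 scale with both hairpins, where 1.94% of all genes kept did and 0.6% lay below -1.5 with both. For shAsns#1 alone 2.52% lay above 1.5 and 1.61% below -1.5, and for shAsns#2 alone 3.2% and 1.44%. The count of 2 members is fixed by how the set was chosen, and nothing is read from it. Saa3, the serum amyloid A gene made outside the liver in mice, had 525, 571 and 1194 counts, or 28.1, 30.0 and 49.98 CPM. It was close to scramble with shAsns#1, at a log2 ratio of 0.09 (-0.08 to 0.27), and above it with shAsns#2, at 0.83 (0.68 to 0.98). The edgeR log2 fold change of 0.51 (standard error 0.28) had an adjusted p of 0.35, which ran from 0.043 to 0.60 over 6 alternatives. It passed when only total counts scaled the libraries and with no filter on low counts. The counts of Saa3 and of Stat3 were not whole, so they may include reads shared with related sequences.

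The remaining acute-phase genes went different ways. Of 34 listed, 9 were tested, 1 rose and 2 fell by edgeR, or 11.1% and 22.2%, against 1.14% and 1.51% of all genes kept. Cp, encoding the copper-carrying ferroxidase ceruloplasmin, rose from 242 counts to 636 and 1260, or from 13.0 to 33.5 and 52.7 CPM (log2 ratios 1.37 and 2.02, edgeR adjusted p = 0.026). C3, the central complement component, had 2711, 5048 and 11963 counts, or 145, 266 and 501 CPM, with log2 ratios of 0.87 and 1.78, and did not pass (edgeR adjusted p = 0.079). F3, encoding tissue factor, fell from 92.9 to 39.7 and 35.7 CPM (edgeR adjusted p = 0.0071), and Mt2, a metallothionein, from 61.9 to 30.6 and 29.0 CPM (edgeR adjusted p = 0.012). The classical hepatic proteins were not seen, with Crp, Apcs, Fga, Fgb, Fgg and Hamp at 0 counts and Saa1, Saa2 and Hp at 3 or fewer in every library. The list medians were 0.47 and 0.10.

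**Figure D4:**
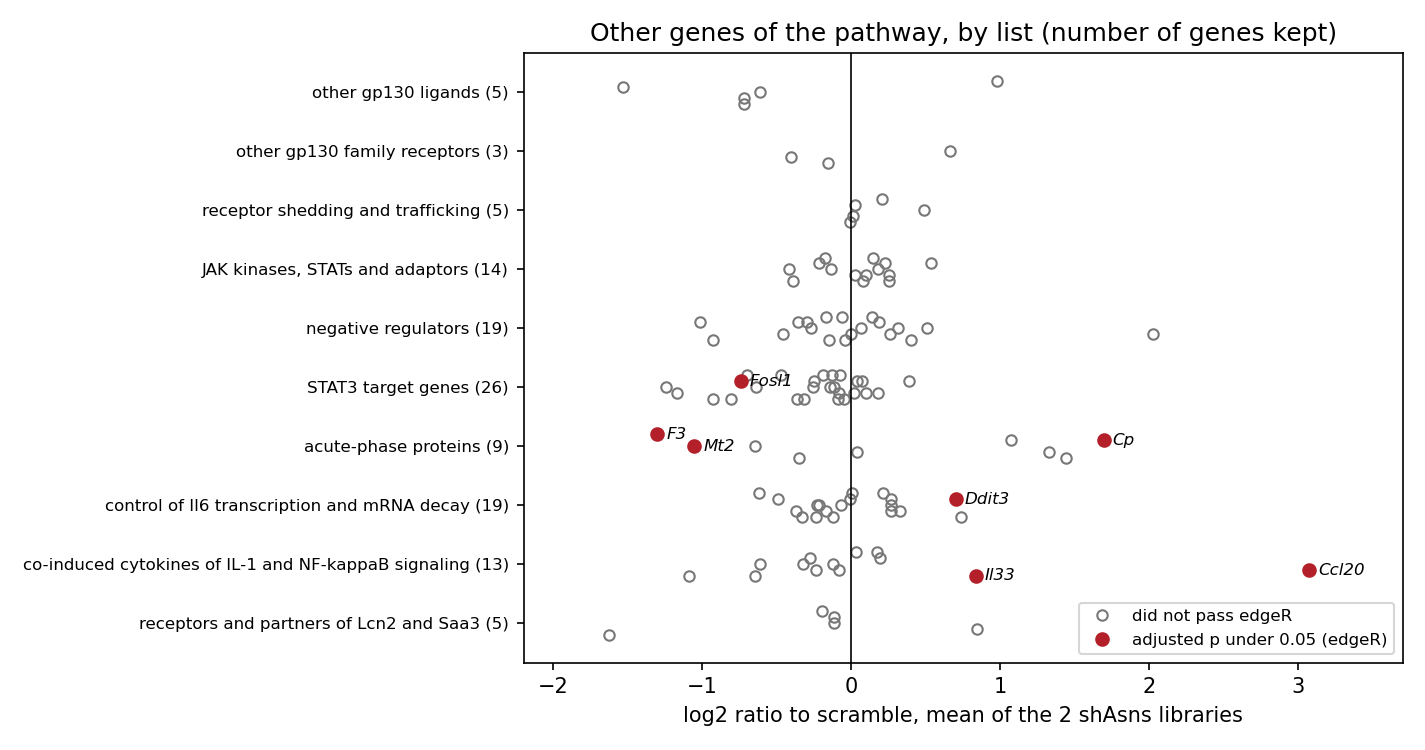
Log2 ratio to scramble, averaged over the shAsns#1 and shAsns#2 libraries, of the tested genes in 10 lists of other pathway genes. Each circle is a gene, and filled circles passed edgeR. Across the lists Ccl20, Cp, Il33 and Ddit3 rose and F3, Mt2 and Fosl1 fell.

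Of 19 tested genes that govern Il6 transcription and mRNA decay, Ddit3 rose by edgeR (5.26%, against 1.14% of all genes kept) and 18 did not pass. The list medians were -0.11 and -0.03. Ddit3, the stress factor CHOP, went from 1038 counts to 1707 and 2182 (log2 ratios 0.69 and 0.71, edgeR adjusted p = 0.039), with counts that were not whole. Arid5a, whose product stabilizes Il6 mRNA, had 393, 572 and 975 counts and log2 ratios of 0.51 and 0.95 (edgeR adjusted p = 0.11). Nfkb1, an NF-κB subunit, stood at -0.38 and -0.36, Nfkbia, its inhibitor, at -0.35 and -0.64, and Atf4 at 0.19 and 0.34, none past the test. Of 13 tested cytokines that IL-1 and NF-κB signaling often induce beside Il6, 2 rose (15.4%, against 1.14% of all genes kept) and none fell by edgeR. Ccl20, a chemokine, had 12, 93 and 154 counts (log2 ratios 2.88 and 3.27, edgeR adjusted p = 0.014), and Il33, an alarmin, 340, 648 and 744 (0.90 and 0.77, edgeR adjusted p = 0.042). In the culture supernatants measured by the study, CCL20 protein was above control with shAsns#1 but near it with shAsns#2. Csf1, Ccl2 and Cxcl2, the highest of them per kilobase in scramble, did not pass, at log2 ratios of 0.21 and 0.17, of -0.18 and -1.12 and of -0.11 and -0.54. Csf3, with 51, 32 and 23 counts, stood at -0.69 and -1.49 and did not pass either. The list medians were -0.18 and 0.11.

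Of 5 tested receptors and partners of lipocalin 2 and serum amyloid A none passed edgeR. Lrp2, encoding megalin, which takes up lipocalin 2, had 147, 288 and 315 counts and log2 ratios of 0.94 and 0.74 (edgeR adjusted p = 0.074). Tlr4, at -0.14 and -0.25, and Scarb1, at -0.03 and -0.20, are receptors reported for serum amyloid A, while Tlr2 and Fpr2 had at most 1 count. The list medians were -0.09 and -0.20. Over the 10 lists together, 117 of 166 other genes were tested. Of these 4 rose, or 3.42% against 1.14% over all genes, and 3 fell, or 2.56% against 1.51%. With limma-voom F3 and Mt2 of the 3 passed and none of the 4, whose limma adjusted p ran from 0.055 for Ccl20 to 0.068 for Il33. With the size factors of DESeq2 in edgeR, Ccl20, F3 and Mt2 passed.

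Terms in the deposited Gene Ontology annotation were counted with Il6 and Lcn2 set aside. In the cellular response to interleukin-6, 9 genes were tested, 8 (88.9%, against 39.1% of all genes kept) stood below scramble with both hairpins and none passed edgeR, with medians of -0.23 and -0.19. The interleukin-6-mediated signaling pathway had 6, of which Il6ra fell (16.7%, against 1.51% of all genes kept). The acute-phase response had 10, of which 1 (10%) rose by edgeR, and none stood below scramble with both hairpins. That gene was Fn1, encoding fibronectin (log2 ratios 1.60 and 1.98), chosen for mention after its value was seen, like Parp14. Of 24 tested genes for positive regulation of interleukin-6 production 2 rose (8.33%), Il33 among them, and 1 fell (4.17%), again Il6ra. Of 13 for negative regulation 2 rose and 1 fell, or 15.4% and 7.69%. Over all genes kept, edgeR called 1.14% higher and 1.51% lower. The JAK-STAT cascade had 14 tested and none passed. Of 18 and 12 genes for positive and negative regulation of STAT tyrosine phosphorylation, Parp14 rose in both (5.56% and 8.33%), and Il6ra fell in the first (5.56%). The small receptor binding and receptor complex terms held 5 and 2 tested genes, and in each only Il6ra fell (20% and 50%). Those for CNTF, LIF and oncostatin M held 3, 3 and 2, with Il6ra lower in the first (33.3%) and none passing in the others. Response to interleukin-6 held none. Il6ra is 1 gene, so its fall in all these terms is 1 call.

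The promoters of Il6 and Lcn2 are shown because those genes chose the set, and those of Saa3 and Socs3 because they differed between the hairpins in opposite directions. They are RefSeq sequences of GRCm38.p6, from 250 bases before to 50 bases after the start of the gene, and capitals mark matches on either strand to 1 of 5 motifs: STAT (TTCNNNGAA), C/EBP (TTGCNNAA), AP-1 (TGANTCA), and the consensus letters of the interferon response element and of NF-κB. Il6 lies at chr5:30012864-30013163 (+ strand), Lcn2 at chr2:32387690-32387989 (- strand), Saa3 at chr7:46715627-46715926 (- strand) and Socs3 at chr11:117969317-117969616 (- strand).
Il6: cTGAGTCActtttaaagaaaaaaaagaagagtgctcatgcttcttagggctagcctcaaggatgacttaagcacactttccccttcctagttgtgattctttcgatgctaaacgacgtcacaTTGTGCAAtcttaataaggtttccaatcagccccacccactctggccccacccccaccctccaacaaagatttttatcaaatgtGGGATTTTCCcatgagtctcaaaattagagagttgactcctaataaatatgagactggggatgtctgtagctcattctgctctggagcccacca
Lcn2: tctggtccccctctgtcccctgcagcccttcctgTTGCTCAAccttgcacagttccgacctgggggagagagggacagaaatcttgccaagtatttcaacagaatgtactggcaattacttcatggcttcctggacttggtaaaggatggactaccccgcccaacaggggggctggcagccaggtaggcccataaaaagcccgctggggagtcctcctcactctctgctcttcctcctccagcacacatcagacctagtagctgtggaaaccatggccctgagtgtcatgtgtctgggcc
Saa3: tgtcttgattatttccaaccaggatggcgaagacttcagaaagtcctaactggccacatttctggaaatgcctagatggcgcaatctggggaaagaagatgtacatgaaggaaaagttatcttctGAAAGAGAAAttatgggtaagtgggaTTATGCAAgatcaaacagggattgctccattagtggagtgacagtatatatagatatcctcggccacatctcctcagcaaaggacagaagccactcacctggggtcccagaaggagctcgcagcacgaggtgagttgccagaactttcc
Socs3: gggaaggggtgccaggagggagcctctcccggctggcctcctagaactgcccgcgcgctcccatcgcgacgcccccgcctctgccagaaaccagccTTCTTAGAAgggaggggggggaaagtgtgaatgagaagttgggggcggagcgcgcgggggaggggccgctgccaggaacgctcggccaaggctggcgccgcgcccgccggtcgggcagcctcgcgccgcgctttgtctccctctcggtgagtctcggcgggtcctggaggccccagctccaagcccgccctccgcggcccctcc
In Il6 the capitals are, in order, an AP-1, a C/EBP and an NF-κB match, beginning at bases -249, -128 and -44 from the start. Lcn2 has a C/EBP match at -216, Saa3 an interferon element match at -125 and a C/EBP match at -99, and Socs3 a STAT match at -154. No matches overlapped. Of 32841 promoters of the same length, 8.30% held the STAT motif, 10.8% C/EBP, 7.81% AP-1, 4.51% NF-κB and 3.44% the interferon element. All 10 members had a promoter in the table, and of the others Lif and Osmr held an AP-1 match and Il6ra, Il6st, Stat3 and Lifr held none of the 5. A match describes letters in this window and is no evidence of binding.

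The hairpin libraries also differed from each other, in a comparison that uses no scramble library. Lcn2 was 1.65-fold higher with shAsns#2 than with shAsns#1, a log2 ratio of 0.72 (95% counting interval 0.65 to 0.80), and Saa3 was 1.66-fold higher, at 0.73 (0.59 to 0.88). C3, at 0.91 (0.87 to 0.96), and Cp, at 0.66 (0.52 to 0.80), were higher in the same library. The other acute-phase genes did not share this as a list: the median of the 9 tested was -0.025, and Mt1 was lower with shAsns#2. Il6 was not told apart between the hairpins, at 0.12 (-0.43 to 0.68), and neither were Lif, at -0.05 (-0.17 to 0.07), Il6ra, at -0.11 (-0.35 to 0.14), or Stat3, at 0.06 (-0.03 to 0.15). Il6st, at 0.31 (0.24 to 0.39), and Osmr, at 0.32 (0.16 to 0.48), were higher with shAsns#2, and Socs3 was lower, at -0.33 (-0.46 to -0.19). None of the 9 members lay past 1.5 in either direction, where 1.24% of all genes kept lay above it and 0.8% below -1.5. With 1 library each these ratios have no replicate check.

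**Figure D5:**
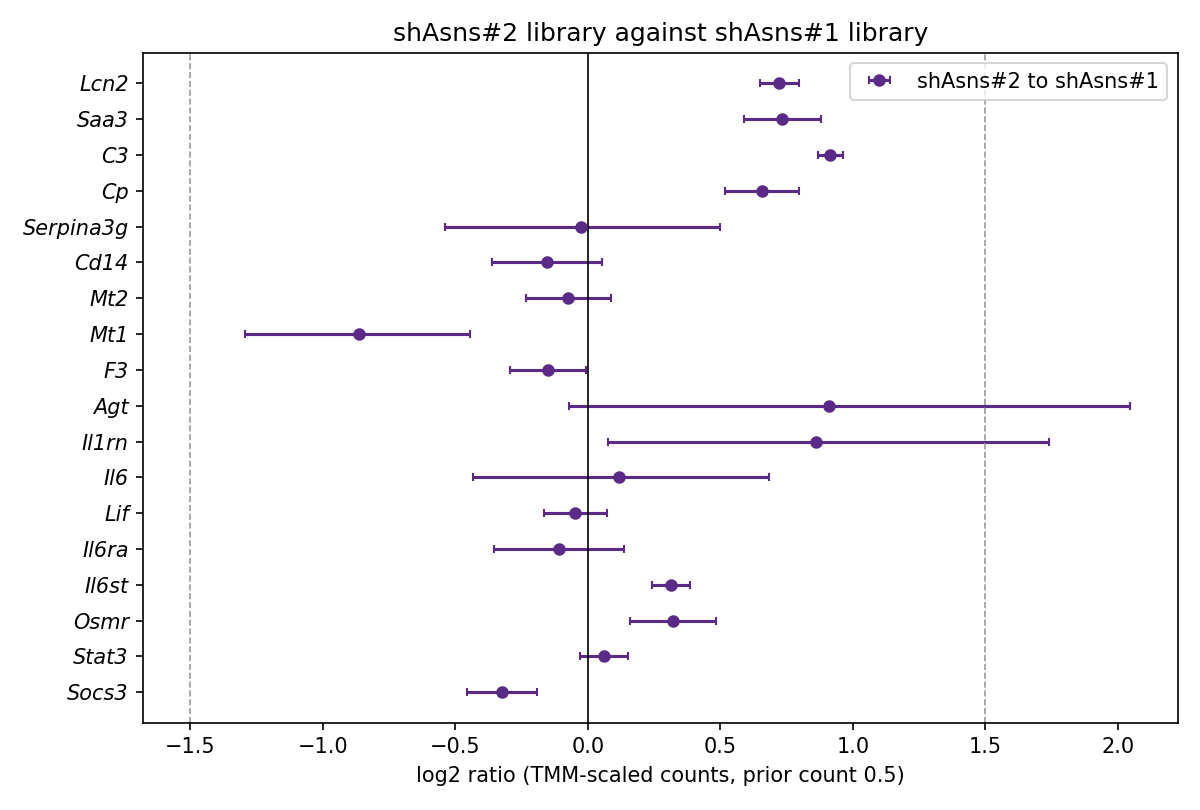
Log2 ratio of the shAsns#2 library to the shAsns#1 library for 9 members and the 9 tested genes of the acute-phase list, with 95% counting intervals as bars and dashed lines at 1.5 in either direction. Lcn2, Saa3, C3 and Cp lay at 0.72, 0.73, 0.91 and 0.66, Mt1 at -0.86, and the interval of Il6 spanned 0.

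Per kilobase of transcript, the order of the members changed between the libraries. In scramble Saa3 led at 50.7 CPM per kilobase, followed by Socs3 at 23.6, Il6st at 22.8, Stat3 at 20.9, Lif at 19.7 and Lcn2 at 19.5, and from Socs3 to Lcn2 each gene overlapped its neighbour in its Poisson interval. Il6ra, at 9.20, Osmr, at 5.92, and Il6, at 0.141, followed, and Il6 overlapped Lifr. With shAsns#1 Lcn2 led at 132 CPM per kilobase and Saa3 came next at 54.1, and with shAsns#2 they were at 218 and 90.0. In both knockdown libraries Osmr stood above Il6ra, at 4.93 against 4.08, whose intervals overlapped, and at 6.16 against 3.78, whose intervals did not. Il6 stayed the lowest but for Lifr, at 2.26 and 2.46.

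The genes whose pair of log2 ratios to scramble lay closest to that of Lcn2 were Pld4, a phospholipase D family gene, at a distance of 0.22 on the log2 scale, Ccl20 at 0.24, and Iigp1, an interferon-inducible GTPase, at 0.35. For Il6 they were Ifi44, an interferon-induced gene, at 0.67, Pld4 at 0.99 and the membrane protein gene Tmem176b at 1.01. The distance runs over the 2 ratios, both of which share the scramble library, so it describes 3 libraries only. Pld4 had 4, 32 and 74 counts.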

How the data were processed

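RNA-seq was performed on 3 MBT2 lines, with TruSeq libraries. The authors deposited expected counts (estimated count values) per Ensembl gene, unscaled, with gene lengths and annotation. Between 32.6% and 33.0% of values above 0 were not whole. No source names the counter or genome build, and the submitters' notes list Bowtie 0.12.2 only. Symbols were matched by Ensembl ID for 52029 of 57010 genes. Where 2 IDs share a symbol (Ddit3), the longer gene was used.

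Values were first rounded. The filter kept 14003 genes that reached 10 counts in any library. Ratios were taken on the log2 scale after TMM scaling, adding 0.5 as prior count, with exact Poisson and Clopper-Pearson conditional 95% intervals for counting error, and floors of 3 counts. Both hairpin libraries formed 1 arm and were tested against scramble in edgeR 4.0.16 (quasi-likelihood, glmQLFTest), with Benjamini-Hochberg adjustment over all genes kept and an adjusted p under 0.05. There was 1 residual degree of freedom per gene, and the biological coefficient of variation was 11.6%. edgeR moderated the dispersion of each gene toward that of all genes kept, so a p rests on more than that gene's own spread. The lone scramble library was assumed to vary like the hairpin libraries, and only the spread between those libraries entered the fit. Standard errors are the fold change divided by the square root of F. The tests were also run on simulated counts, with the same spread for scramble and hairpin libraries. Only genes expected at 50 counts or more were changed there. That run cannot check the assumption about scramble or genes as low as Il6, and its outcome is not given. Of the pathway lists, 2 genes are not reported here and were left out of their counts. The members and lists were chosen with earlier results of these data known. Named were all members, every gene of 10 lists that passed, up to 3 per list by level in scramble per kilobase and up to 2 by mean log2 ratio (at least 50 counts), and the 3 nearest patterns to Il6 and Lcn2; other names were chosen after their values were seen. Alternatives were DESeq2 size factors, total counts, other filters, a prior count of 2, DESeq2 1.42.0 and limma 3.58.1 (voom). R 4.3.3 and Python 3.11.15 were used. Gene lengths in CPM per kilobase are those of the table.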

Additional observations from a re-analysis of the deposited data

Results flagged for a closer look

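Among members and the pathway lists, 3 genes moved in opposite directions with the 2 hairpins, each with both counting intervals clear of 0, and the difference was not tested because each hairpin had 1 library. Timp1, an inhibitor of matrix metalloproteinases and a STAT3 target, had log2 ratios to scramble of 0.23 with shAsns#1 and -0.52 with shAsns#2. Birc5, encoding survivin, stood at 0.21 and -0.13. Ptgs2, encoding cyclooxygenase-2, stood at -0.31 and 0.15. No member was among them. Counting intervals leave out the spread between libraries and are narrow for genes with many counts. The share of all genes kept that did the same is not given, so nothing is read from this count.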

How the results depend on the processing

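Il6ra kept its direction and its call under all 6 alternatives, and Stat3, Socs3, Il6st and Osmr passed under none. Of the 8 members other than Il6 and Lcn2, 1 was called, against 3 with total counts or without a filter on low counts, and 2 with at least 10 counts in every library. Pathway genes higher numbered 4, against 1 with DESeq2 size factors, 10 with total counts, 10 without a filter, 3 with the DESeq2 test and 0 with limma-voom. Pathway genes lower numbered 3, against 10 with total counts, 15 without a filter and 7 with at least 10 counts in every library. Over all genes edgeR called 160 higher, against 740 with total counts, 700 without a filter, 87 with DESeq2 size factors and 55 with limma-voom. It called 211 lower, against 517, 856, 122 and 117 in that order. When each library had to reach 10 counts, 199 were higher and 304 lower, and the DESeq2 test gave 136 and 183. The settings that called more members also called more of all genes. The added calls are therefore not read as particular to the members or the lists. The cause of these shifts was not tested. With total counts the median of all genes moved to 0.04 with shAsns#1 and 0.11 with shAsns#2, and Stat3 stood at 0.00 and 0.14. With total counts the ratio of Stat3 for shAsns#1 and that of Lif between hairpins changed sign, neither of them called. Il6 and Lcn2 stayed the 2 members past 1.5 with both hairpins under each scaling and with a prior count of 2. Their rise chose the set, so nothing is read from that. No test was possible without either hairpin, since no residual degree of freedom is left; the values with 1 hairpin are the ratios in the text. No paired analysis was possible because each construct has 1 library and the labels number no replicates. Il6 in scramble rests on 3 counts, which sets the width of its interval.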
